A study of Drosophila melanogaster with 5 samples.

Results

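In Drosophila S2 cells, 25 genes carried at least 4 times the ribosome footprint density on their coding sequence (CDS) in all polysomes that they had as mRNA. They were chosen from the longest CDS of each gene, which had to code for more than 100 aa and to reach 10 RPKM of mRNA (reads scaled to CDS length and library size). Of the 13967 genes listed, 13158 had a CDS of that length and 5363 of these reached the mRNA limit, so the 25 genes are 0.466% of the genes that could have been chosen. Their ratio of footprint RPKM to mRNA RPKM, the translation efficiency (TE), ran between 4.00 and 7.34 in all polysomes with a median of 4.60, against a median of 0.99 over the 5363 genes. This ratio chose the genes and is given as a description. What it did not use are the footprints of 3 other libraries, the size class of the polysomes, the CDS and UTR lengths and the upstream ORFs.

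S2 cells are a line of embryonic origin with features of hemocytes, the blood cells of the fly. The cells of every library received cycloheximide, which holds ribosomes on the mRNA, and cytoplasmic lysates without nuclei were separated on sucrose gradients. Ribosome-protected fragments were sequenced from 4 samples: all polysomes after depletion of rRNA, large polysomes, small polysomes, and a biological replicate of the small polysomes sequenced to greater depth (small polysomes extensive). Total cytoplasmic mRNA, selected with oligo(dT) and fragmented, was the fifth sample and serves as the reference of every TE. The 25 genes are therefore known in 1 line under 1 growth condition.

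A TE compares how densely ribosomes occupy a coding sequence with how abundant its mRNA is, and it depends on how often ribosomes start and how fast they move. An mRNA with many ribosomes sediments with the large polysomes, and a long CDS has room for more of them than a short one. Upstream ORFs (uORFs), short reading frames in the 5′ UTR, and elements of the 3′ UTR are known routes by which translation of a CDS is tuned. Because each value is a share of its library, a TE ranks a gene against the other genes of the same libraries and is not a number of ribosomes per mRNA. In a bulk lysate, translation in more of the cells and more ribosomes on each mRNA cannot be told apart.

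The read totals that set the RPKM scale were 3190000 in all polysomes, 2625000 in large polysomes, 5498000 in small polysomes, 9160000 in the extensive library and 4560000 for mRNA. These totals are near the numbers of mapped reads that the study reports, while only unique matches were retained. By the study's counts, unique matches were a smaller share of mapped reads in the initial small polysomes than in the other footprint libraries. RPKM of the initial small polysomes may thus be scaled low against the others, and no correction was made. Each library is a single sample, so no spread between replicates and no p-value can be given, except that small polysomes can be set against their own replicate. Intervals in brackets are exact 95% Clopper-Pearson intervals of a ratio of reads and cover counting error only. Of 6 genes listed as marks of S2 cells, 4 had at least 10 RPKM of mRNA (Pvr 136, Pxn 327, srp 109 and crq 74.6), while vkg had 1.73 and Hml 0.019. Of 11 genes that mark other cell types, 7 had under 1 RPKM, and bam, a germline gene, was the highest at 26.2.

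**Figure D1:**
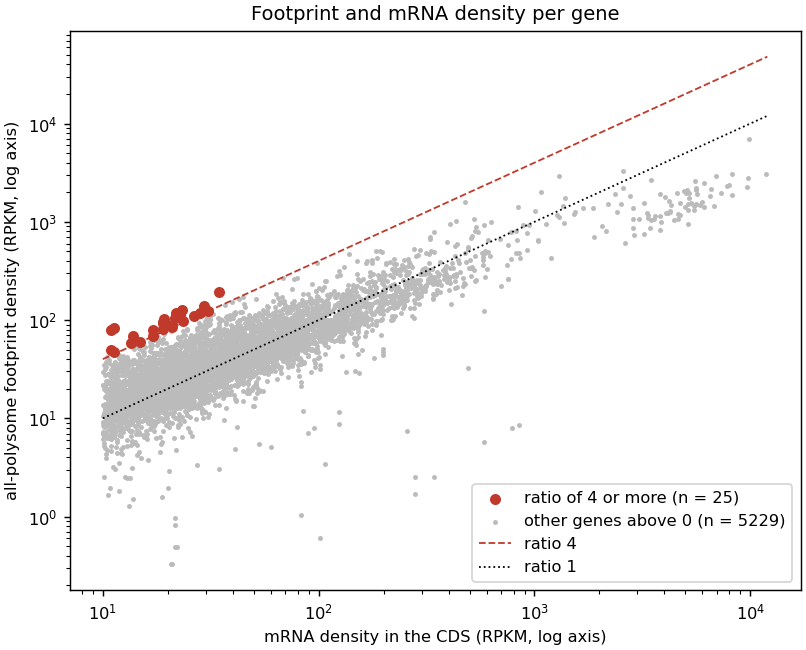
Footprint RPKM in all polysomes (vertical, log scale) against mRNA RPKM (horizontal, log scale) for the 25 genes and the other eligible genes, with 1 point a gene. The 25 genes lie on or above the line of a 4-fold ratio, at mRNA levels between 10.9 and 34.4 RPKM.

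The 25 genes were grouped by their known roles after the genes had been seen. The groups held 7 genes of signalling and the cytoskeleton, 6 other membrane proteins, 5 genes of growth control and gene regulation, 3 genes of ubiquitin ligation or phosphatase action, 2 genes of polarity and adhesion, and 2 genes for which no role is given. Each gene was put in 1 group, and the groups are loose. PRL-1, a phosphatase, was counted under signalling, and spoon, which anchors a kinase, under growth control and gene regulation. None of the 25 was in any of 21 lists of housekeeping and specialised genes, which held 596 of the 5363 genes. The median mRNA level of every list was above 40 RPKM, the lowest being 42.6 RPKM, while all 25 genes had under 40 RPKM. Most of the listed histone genes stood at 0 in every footprint library. How far mRNA level and these zeros account for the absence was not tested. Among the lists, the cytosolic ribosomal proteins, with 74 genes, had a median TE of 0.30 in all polysomes, and their highest member, RpS3A, had 0.82. Other lists reached closer to the limit, with 3.91 for Hrb27C, an RNA-binding protein, and 3.39 for Mlc-c, a myosin light chain. Next were 3.30 for pes, listed among hemocyte receptors and markers, and 3.26 for CycD, a cyclin.

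Among the genes of signalling and the cytoskeleton, RasGAP1 (FBgn0004390, chromosome 3L, 9833608 to 9847912 in FlyBase Release 5, as are all positions here) encodes an activator of Ras GTP hydrolysis. It had 78.4 RPKM in all polysomes, 52.7 in large polysomes, 30.2 in small polysomes and 30.8 in the extensive library, against 10.9 RPKM of mRNA. All 4 libraries thus stood above the mRNA level, with a TE of 7.20 in all polysomes [6.12 to 8.52], the second highest of all eligible genes. Rala (FBgn0015286, chromosome X, 3601408 to 3604254), a small GTPase of the Ral type, had 138, 142, 155 and 308 RPKM in all, large, small and extensive small polysomes, against 29.3 RPKM of mRNA. Its TE was 4.71, 4.85, 5.29 and 10.5 in these libraries, so that Rala passed the limit of 4 in every footprint library. PRL-1 (FBgn0024734, chromosome 2L, 16247075 to 16248950), a phosphatase of the PRL family, had 93.9, 45.2, 48.6 and 204 RPKM in the same order of libraries, against 19.0 RPKM of mRNA. The small polysomes and their replicate stood 4.20-fold apart for PRL-1, the widest gap among the 25 genes.

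The other members of this group act at the membrane and on the cytoskeleton. The semaphorin receptor plexA (FBgn0025741, chromosome 4, 1034985 to 1044097) had 105, 60.8, 16.8 and 38.4 RPKM in all, large, small and extensive small polysomes, against 21.7 RPKM of mRNA. Its small polysome TE of 0.78 in the initial library was, with that of PMCA, the lowest of the 25, beside 4.83 in all polysomes. The Rac exchange factor mbc (FBgn0015513, chromosome 3R, 19608062 to 19626493), a relative of DOCK180, had 78.6, 47.8, 36.6 and 50.2 RPKM in the same order, against 17.1 RPKM of mRNA. The adaptor pico (FBgn0261811, chromosome X, 19727372 to 19745045), the fly member of the family of lamellipodin, had 98.4, 132, 62.2 and 57.7 RPKM, against 23.6 RPKM of mRNA. For pico the large polysomes gave the highest TE, 5.58, and both small polysome libraries gave values near each other, 2.64 and 2.45. The microtubule-associated protein Map205 (FBgn0002645, chromosome 3R, 27883044 to 27893718) had 118, 138, 23.8 and 40.9 RPKM, against 28.0 RPKM of mRNA. With the initial small polysomes, Map205 had the steepest tilt towards large polysomes of all 25 genes, at 0.17 times their density [0.15 to 0.19]. With the extensive library the steepest was CG8184, with 17.5 RPKM there and 151 in large polysomes.

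Of the other membrane proteins, the tetraspanin Tsp96F (FBgn0027865, chromosome 3R, 21700764 to 21706803) had the highest ratio of all eligible genes. It had 82.9 RPKM in all polysomes, 43.2 in large polysomes, 66.6 in small polysomes and 105 in the extensive library, against 11.3 RPKM of mRNA. The TE in all polysomes was 7.34 [5.30 to 10.4] and rested on 226 footprint reads and 44 mRNA reads, so its interval is wide. Its TE of 9.28 in the extensive library, 5.90 in small and 3.83 in large polysomes puts the small polysomes first in both replicates. The metalloprotease kuz (FBgn0259984, chromosome 2L, 13551603 to 13636649), the fly ADAM10, which cleaves Notch, had 110, 104, 45.4 and 48.2 RPKM in all, large, small and extensive small polysomes, against 26.5 RPKM of mRNA. The multi-pass protein pcx (FBgn0003048, chromosome X, 2119744 to 2130628), which acts in the Notch pathway, had 80.9, 91.5, 24.2 and 18.5 RPKM in the same order, against 18.9 RPKM of mRNA. Both Notch pathway genes were denser in large than in small polysomes, and in the extensive library pcx stood slightly under its mRNA, at a TE of 0.98.

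PMCA (FBgn0259214, chromosome 4, 352191 to 376092), the calcium pump of the plasma membrane, had 89.2, 57.5, 16.4 and 28.1 RPKM in all, large, small and extensive small polysomes, against 21.0 RPKM of mRNA. PMCA and plexA are the genes of this set on chromosome 4, the small autosome, on which only 0.354% of the eligible genes lie. fwe (FBgn0261722, chromosome 3L, 15803804 to 15809376), a membrane protein by which cells compare their fitness, had 47.7, 31.9, 43.8 and 67.0 RPKM in the same order, against 11.2 RPKM of mRNA. Its mRNA value is the least well counted of the set, from 30 reads, and the TE of 4.24 had an interval of [2.78 to 6.65]. CG6490 (FBgn0039431, chromosome 3R, 22298701 to 22357946), a protein of the immunoglobulin superfamily also called plum, had 68.3, 43.8, 42.0 and 66.7 RPKM, against 17.1 RPKM of mRNA. With a TE of 4.01 it stood just inside the limit.

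The growth regulators were led by dm (FBgn0262656, chromosome X, 3269039 to 3279345), the fly Myc, a transcription factor that drives growth and ribosome synthesis. It had 102 RPKM in all polysomes, 77.8 in large polysomes, 31.0 in small polysomes and 35.3 in the extensive library, against 19.1 RPKM of mRNA. The TE of dm was 5.31 in all polysomes [4.51 to 6.27] and 4.07 in large polysomes, while the small polysomes gave 1.62 and their replicate 1.84. brat (FBgn0010300, chromosome 2L, 19168146 to 19177523), a translational repressor that restrains growth, had 85.1, 103, 33.9 and 27.4 RPKM in all, large, small and extensive small polysomes, against 20.9 RPKM of mRNA. scyl (FBgn0041094, chromosome 3L, 11245991 to 11247575), an inhibitor of TOR signalling of the REDD1 type, had 58.0, 30.3, 39.7 and 35.7 RPKM in the same order, against 13.5 RPKM of mRNA. A driver of growth and restraints on growth were thus both in the set. exd (FBgn0000611, chromosome X, 15887542 to 15889005), the homeodomain partner of the Hox proteins, had 49.6, 68.0, 42.3 and 57.6 RPKM, against 10.9 RPKM of mRNA. Its mRNA was the lowest of the 25, and its TE lay between 3.90 and 6.27 in the 4 libraries. spoon (FBgn0263987, chromosome X, 5309006 to 5314271), an anchoring protein of protein kinase A, had 94.7, 65.2, 65.8 and 48.5 RPKM, against 19.0 RPKM of mRNA.

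CG8184 (FBgn0030674, chromosome X, 15608148 to 15625180), the fly relative of the giant ubiquitin ligase HUWE1, has the longest CDS of the set, 15456 nt for 5151 aa. It had 112 RPKM in all polysomes, 151 in large polysomes, 32.8 in small polysomes and 17.5 in the extensive library, against 22.7 RPKM of mRNA. Its footprints lay mainly in large polysomes, with a TE of 6.64 there, and its TE of 0.77 in the extensive library was under the median of the eligible genes. With 5526 footprint reads in all polysomes and 1598 mRNA reads it was also the best counted gene, at a TE of 4.94 [4.67 to 5.23]. Dd (FBgn0029067, chromosome X, 21192349 to 21194256), the Dullard phosphatase, had 117, 78.6, 71.8 and 196 RPKM in all, large, small and extensive small polysomes, against 21.9 RPKM of mRNA. ppa (FBgn0020257, chromosome 2R, 18574538 to 18576226), an F-box protein whose CDS is a single exon, had 59.8, 45.3, 50.7 and 26.5 RPKM in the same order, against 14.9 RPKM of mRNA. The replicate of the small polysomes was 2.73-fold above the initial library for Dd and at 0.52 of it for ppa, so the replicates parted in opposite directions for these genes.

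The polarity protein l(2)gl (FBgn0002121, chromosome 2L, 11215 to 17136), a tumour suppressor of the fly, had 124, 78.0, 43.8 and 67.3 RPKM in all, large, small and extensive small polysomes, against 30.7 RPKM of mRNA. The catenin p120ctn (FBgn0260799, chromosome 2R, 482933 to 496798), a component of adherens junctions, had 68.7, 45.3, 18.1 and 53.6 RPKM in the same order, against 13.8 RPKM of mRNA. The extensive library gave p120ctn a TE of 3.87, well above the 1.31 of the initial small polysomes. CG31637 (FBgn0051637, chromosome 2L, 6498876 to 6526014), for which no role is given here, had 126, 129, 170 and 204 RPKM, against 23.3 RPKM of mRNA. Its TE was 5.42, 5.55, 7.30 and 8.78, above 4 in every library, as was found besides only for Rala. CG43954 (FBgn0264605, chromosome 3L, 16670916 to 16671272) is the shortest of the set, a single exon of 357 nt for 118 aa. It had the highest all-polysome density, 192 RPKM, with 107, 57.6 and 65.7 RPKM in large, small and extensive small polysomes, against 34.4 RPKM of mRNA. In the other 3 libraries its TE was 3.10, 1.67 and 1.91.

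**Figure D2:**
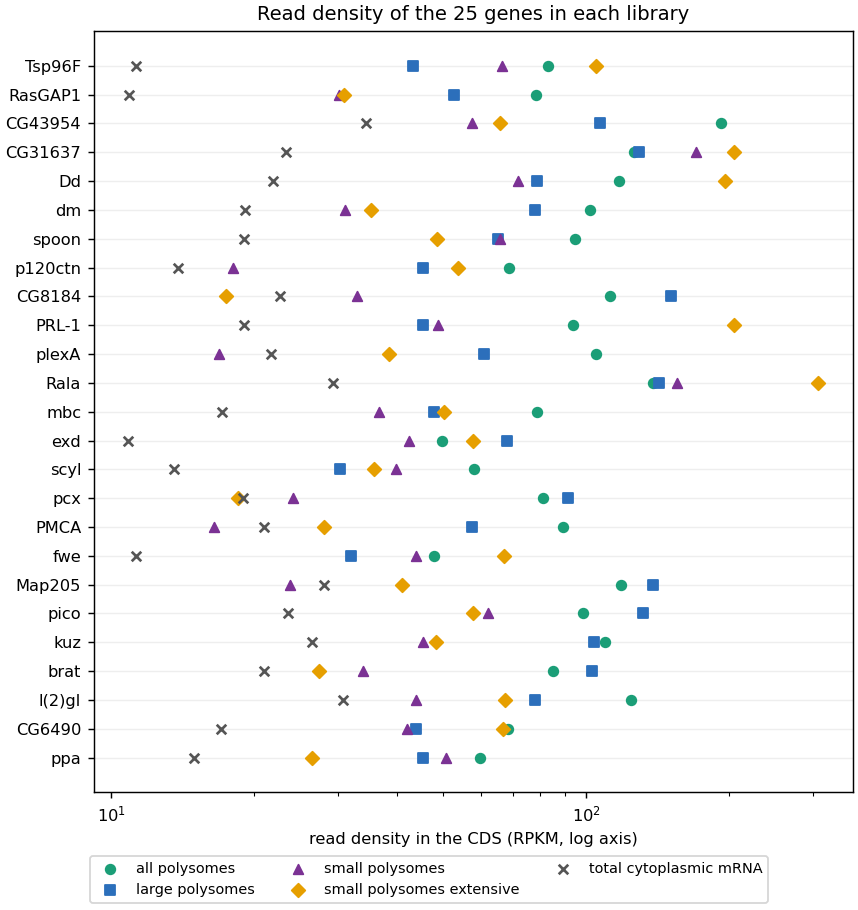
RPKM of each of the 25 genes (log scale) in the 4 footprint libraries and in total cytoplasmic mRNA, with 1 point for each library and gene. Every all-polysome and large polysome value lies above the mRNA value of its gene, while CG8184 and pcx in the extensive library and plexA, PMCA and Map205 in small polysomes lie under it.

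The limits of the rule cut through a continuous range of values. Just inside the ratio limit were ppa, CG6490 and l(2)gl at a TE of 4.00, 4.01 and 4.05, and just outside were CG17528 at 3.98, Dys at 3.98 and hipk at 3.95. At the mRNA limit, exd, RasGAP1 and fwe at 10.9, 10.9 and 11.2 RPKM were inside, and CG42788, roq and upSET at 9.83, 9.72 and 9.64 RPKM were outside with a TE of 4.05, 4.09 and 4.77. The length limit left out no gene, since none of the 178 genes with mRNA of at least 10 RPKM and a longest CDS of up to 100 aa reached a TE of 4. Of the 2867 genes of over 100 aa with mRNA above 0 and under 10 RPKM, 175 had a TE of at least 4.

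Of the 25 genes, 11 had the lower bound of the counting interval at 4 or more. The mRNA levels of the set were low, with a median of 19.1 RPKM over the 25 genes and 36.3 over the eligible ones. All 25 had under 40 RPKM, with 13 of 1323 eligible genes at 10 to 20 RPKM and 12 of 1596 at 20 to 40 RPKM. None of the 1497 genes at 40 to 100 RPKM or of the 947 above was in the set, where the highest were hipk, a kinase, and Mlc-c. The mRNA reads of the 25 genes had a median of 176 and the range 30 to 1598, and those of the eligible genes had a median of 251. Since mRNA stands in the denominator of the rule, how far low mRNA counts placed genes in the set was not tested.

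In the other footprint libraries the 25 genes stayed high, but mostly under the limit of 4. This limit was reached by 10 of 25 in large polysomes, where 0.503% of the eligible genes reached it, by 3 in small polysomes, where 0.298% did, and by 7 in the extensive library, where 2.0% did. In at least 1 of these 3 libraries it was reached by 14 of the 25 genes and by 2.44% of the eligible genes. CG31637 and Rala reached it in all 3, and Tsp96F and exd in 2. The all-polysome ratio, on which they were chosen, was the highest of the 4 for 13 of the 25. All these ratios share the mRNA value of the rule and are not independent of it.

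At a lower limit of 2, all 25 genes passed in large polysomes, as did 9.32% of the eligible genes. In small polysomes 14 of 25 passed, with 5.65% of the eligible genes, and in the extensive library 15, with 13.7%. The median TE of the set was 3.59 in large polysomes, 2.46 in small polysomes and 2.56 in the extensive library, against 0.92, 0.72 and 0.92 over the eligible genes. Except for CG8184, which was under it in the extensive library, every member exceeded the eligible median in all 3 libraries, as did 20.7% of the eligible genes.

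**Figure D3:**
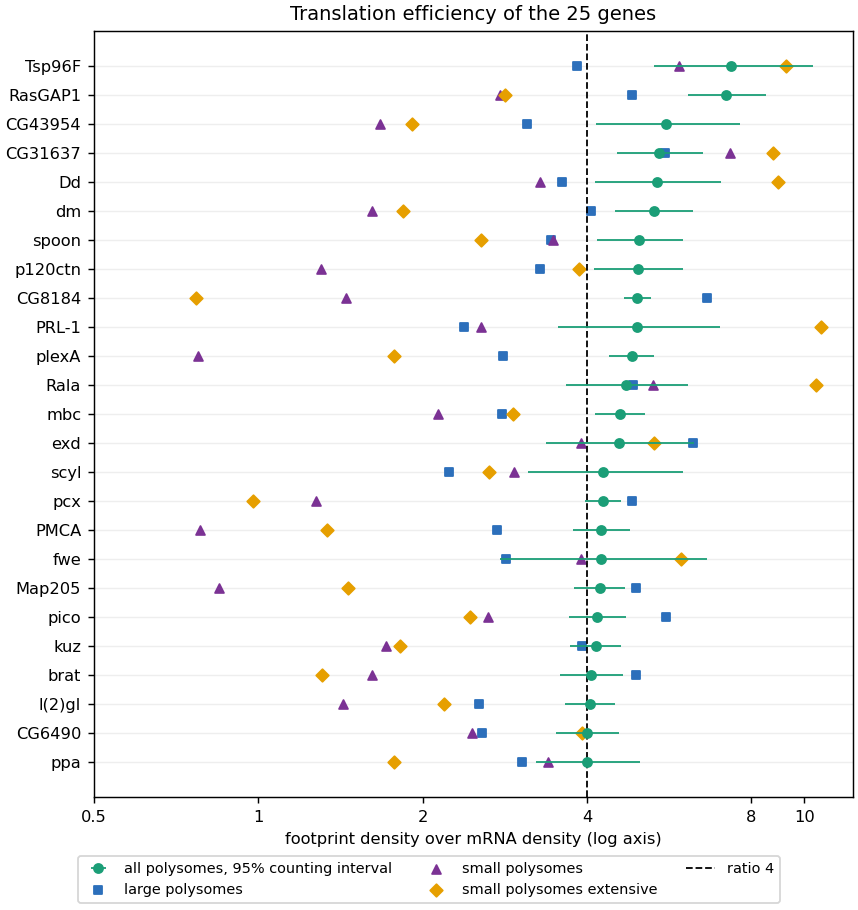
TE (footprint RPKM over mRNA RPKM, log scale) of the 25 genes in each of the 4 footprint libraries, with a line for the limit of 4 and 95% counting intervals for all polysomes. All points in large polysomes lie above 2, while small polysome values spread between 0.78 and 7.30 and extensive values between 0.77 and 10.7.

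The footprint densities and the coverage of each CDS are given as a description. The rule requires at least 40 RPKM in all polysomes, above the eligible median of 37.6 RPKM. Coverage in all polysomes comes from the same reads, and the other libraries come from the same line. The median densities of the set were 68.0 RPKM in large polysomes, 42.3 in small polysomes and 50.2 in the extensive library. Those of the eligible genes were 33.8, 25.7 and 33.1 RPKM. Footprints were spread over most of each CDS. In all polysomes a median of 0.97 of the CDS was covered in the set and 0.89 over the eligible genes, and in large polysomes 0.80 and 0.63. A coverage of 0.57, taken as the lower limit of a translated CDS, was reached by all 25 genes in all polysomes (91.6% of the eligible genes), in small polysomes (71.6%) and in the extensive library (89.7%). In large polysomes 24 of 25 reached it (57.8%), with scyl at 0.53.

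Small and large polysomes were compared next, a contrast that uses neither the mRNA nor the all-polysome library. The density in large polysomes was the higher for 17 of 25 genes, against 61.0% of the eligible genes, and at least 2-fold higher for 10, against 36.3%. No member was at least 2-fold higher in the initial small polysomes, where 20.1% of the eligible genes were. In the extensive library PRL-1, Dd, Tsp96F, Rala and fwe were at least 2-fold above large polysomes. PRL-1 was furthest, with 204 RPKM against 45.2 in large polysomes. Among the eligible genes the upper quartile of the log2 ratio of extensive over large polysomes was 1.13. By counting intervals of initial small against large polysomes, 15 of 25 genes were denser in large polysomes. This was so for 53.7% of the 5256 eligible genes with reads in either of these libraries. Tsp96F and CG31637 were denser in small polysomes, against 28.9%, and for 8 the interval spanned a ratio of 1. Counts on either side of a ratio of 1 depend on the RPKM scale, which may set the initial small polysomes low. The intervals do not cover this. The median small over large ratio was 0.57 (log2 −0.80) in the set and 0.71 (log2 −0.50) over the eligible genes, and taking small polysomes from the extensive library, the log2 median was −0.42 in the set and −0.06 over the eligible genes. With a ratio limit of 5, which keeps 6 genes, the log2 median of the set was −0.47, no longer under that of the eligible genes. Relative to both small polysome libraries, the large polysomes were above for 13 of 25 genes, against 49.4% of the eligible genes, and under for 6, against 36.0%.

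This ratio moved with CDS length, in the set as in the eligible genes. All 12 members of over 3000 nt were denser in large polysomes, as were 96.5% of the eligible genes of that length, with a median ratio of 0.38 in the set and 0.43 over the eligible genes. With the extensive library, 10 of these 12 were denser in large polysomes, against 93.1% of the eligible genes of that length. The 7 members of up to 1000 nt had a median ratio of 1.09, and eligible genes of that length 1.85. Each of the 7 was under the median of its length class in the initial library, and 6 of 7 in the extensive one, where the medians were 2.16 in the set and 2.53 over the eligible genes. The short members were thus less tilted towards small polysomes than other short genes in these values. In the class between, the 6 members had 0.79 and the eligible genes 0.55.

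**Figure D4:**
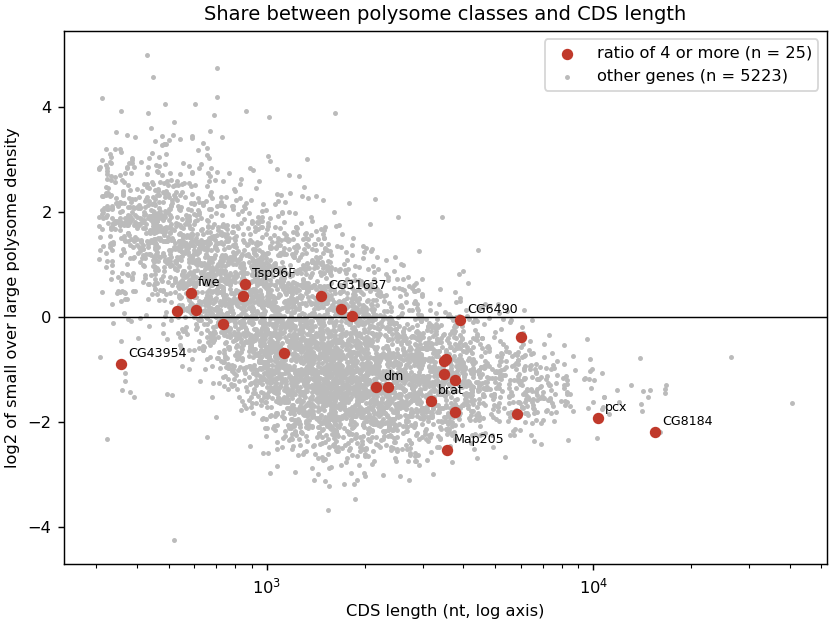
Small over large polysome density (log2 RPKM ratio, vertical) against CDS length (nt, log scale, horizontal) for the 25 genes and the other eligible genes. Members of over 3000 nt all lie under 0, and those of up to 1000 nt lie near 0, with CG43954 lowest and Tsp96F highest among them.

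Both ends of the length range were represented. The median CDS of the set was 2346 nt, against 1368 nt over the eligible genes, and the set ran between CG43954 at 357 nt and CG8184 at 15456 nt. This direction depends on the ratio limit, since the 6 genes left at a limit of 5 had a median CDS of 1158 nt, under that of the eligible genes, while the 12 left at an mRNA minimum of 20 RPKM had 3487.5 nt. Genes of over 3000 nt held 12 members among 807 eligible genes (1.49%), those of over 1000 to 3000 nt 6 among 2732 (0.22%), and those of up to 1000 nt 7 among 1824 (0.38%). The all-polysome TE itself was higher for long genes throughout, with an eligible median of 1.45 over 3000 nt, 0.98 in the class between and 0.83 for the short genes. The longest members after CG8184 were pcx at 10314 nt, mbc at 6027 nt and plexA at 5838 nt, and the shortest after CG43954 were PRL-1 at 531 nt, fwe at 585 nt and Rala at 606 nt.

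The choice of CDS mattered little. More than 1 distinct CDS was listed for 17 of the 25 genes, and no other CDS of these genes had a TE under 4. No CDS of the set overlapped a CDS of another gene. On the X chromosome lay 8 of the 25 genes, against 17.1% of the eligible ones.

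The replicate of the small polysomes gives the only measure of reproducibility. The extensive library was denser than the initial one for 18 of 25 genes, against 74.1% of the eligible genes. How far the RPKM scale, which may set the initial library low, adds to this and to the fold values below was not tested. The median log2 ratio of the replicates was 0.45 in the set and 0.34 over the eligible genes, whose standard deviation was 0.55 across genes. At least 2-fold more density in the extensive library was found for 4 genes, PRL-1 (4.20-fold), p120ctn (2.97-fold), Dd (2.73-fold) and plexA (2.29-fold), against 13.3% of the eligible genes. In the other direction, the extensive library stood at 0.52 of the initial one for ppa and 0.53 for CG8184, the lowest of the 25. The TE in small polysomes of these 4 genes, of ppa and of CG8184 is accordingly less certain than counting intervals show. RasGAP1, kuz and pico had nearly equal RPKM in both replicates, at 1.02, 1.06 and 0.93, and so stood under the median ratio of 1.27 over the eligible genes.

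The UTRs of the set were long. In the Ensembl annotation, in which all 25 genes and 5158 of the eligible genes were found, the median 3′ UTR was 1275 nt in the set and 240 nt over the eligible genes, and the median 5′ UTR was 435 nt and 145.5 nt. The longest 3′ UTR was that of dm, 3542 nt, and the shortest that of p120ctn, 199 nt. The longest quartile of 3′ UTRs held 22 of the 25 genes, and the longest quartile of 5′ UTRs held 19. Neither length entered the rule, but the TE grew with them across the eligible genes, with a median in all polysomes of 0.76, 0.86, 1.05 and 1.55 across quartiles of rising 3′ UTR length and of 0.79, 0.90, 1.03 and 1.42 for 5′ UTRs.

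The difference in UTR length was found within each class of CDS length. For CDSs of up to 1000 nt the median 3′ UTR was 1410 nt in the set and 168.5 nt over the eligible genes, and for those of over 3000 nt it was 1010.5 and 452 nt. The 5′ UTRs of the short members had a median of 584 nt, against 108 nt, and CG43954, with a CDS of 357 nt, had the longest 5′ UTR of the set at 2646 nt. All 25 genes lie between 10 and 40 RPKM of mRNA, and among the 2818 annotated genes of the 2919 eligible ones in that range the median 5′ UTR was 155 nt and the median 3′ UTR 282 nt. UTR lengths are those of annotated transcripts and were not measured in S2 cells.

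**Figure D5:**
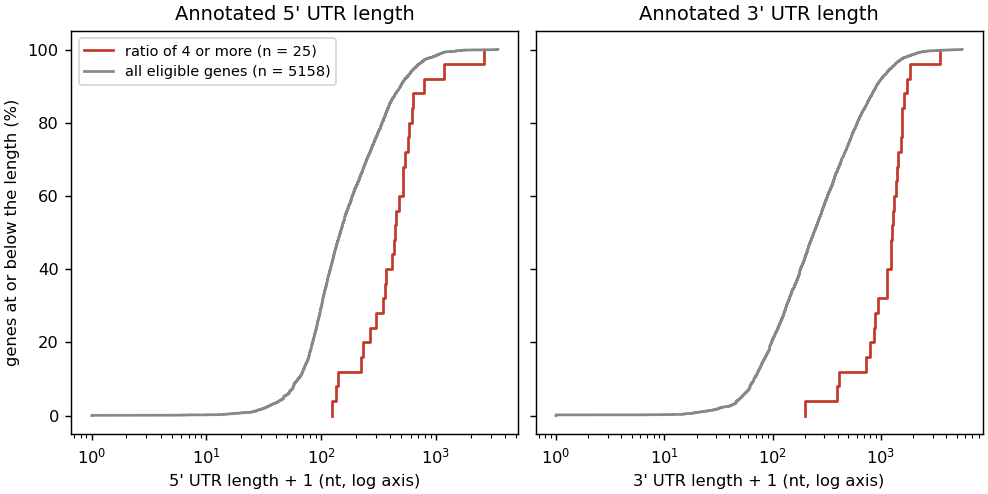
Cumulative share of genes by length of the 5′ UTR and of the 3′ UTR (nt, log scale) for the 25 genes and for the eligible genes with annotated transcripts. The curves of the 25 genes lie to the right, with medians of 435 nt and 1275 nt, against 145.5 nt and 240 nt.

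At least 1 uORF was listed for 17 of the 25 genes (68.0%), against 42.1% of the eligible genes. For 13 genes at least 1 uORF passed the limits on density and coverage in a footprint library, against 26.2%. The longer 5′ UTRs give more room for uORFs, and their part in these counts was not tested. The 17 genes had 58 listed uORFs, of which 28 (48.3%) passed the limits, against 2468 of the 6163 uORFs of the eligible genes (40.0%). For pico, 5 of 6 uORFs passed, among them 1 of 135 aa with 55.7 RPKM in all polysomes, 66.8 in large polysomes, 23.8 in small polysomes and 65.5 in the extensive library. Footprints were thus found on this uORF in every library. All 4 uORFs of kuz, both of Dd and both of mbc passed, as did 5 of 10 for plexA, while none of 6 passed for exd, none of 3 for CG8184, 1 of 7 for PRL-1 and 1 of 6 for l(2)gl. The single uORF of dm, of 10 aa, was listed at 0 RPKM in every library despite coverages of 0.9 to 1. The failing uORFs of PRL-1 and both uORFs of Rala also had 0 RPKM in every library, with coverages of up to 1. Those of exd had 0 RPKM too, with coverages between 0 and 0.71. RPKM and coverage of such uORFs thus go against each other in the deposited values. Whether footprints were absent there cannot be told from the pass counts.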

How the data were processed

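Per the labels and the study's methods, Bowtie served to discard rRNA and tRNA reads, and TopHat then placed the others on FlyBase Release 5.50, of which unique matches were retained. The deposited values are RPKM per CDS or uORF. The authors also deposited coverage as a fraction between 0 and 1, the part of each ORF under footprints. The mRNA column appears to pool 2 mRNA libraries, judged by the size of its read step. Of the 115 eligible histone genes, 105 are listed at 0 in all 4 footprint libraries with mRNA of 36.4 to 284 RPKM, and they stay in the eligible medians. A table of ORFs in ncRNAs was not used here.

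Reads were recovered as RPKM times length times the library's divisor and came out whole, within 0.01, for 100% of CDSs above 0. As every group has 1 sample, no count test was run. TE is footprint over mRNA RPKM with no pseudocount, and 110 genes without RPKM were left out. Intervals are exact 95% Clopper-Pearson intervals of 1 read count given the sum of both, scaled by the divisors. Without molecular identifiers reads are not independent molecules. The steps were tested on simulated data.

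Every gene of the set is named, the rule for naming being all members where there are no more than 25. The members and lists were chosen with earlier results of these data known. Gene lists were matched by symbol, which placed Prosap among proteasome subunits. Gene names, transcripts and UTR lengths (median over transcripts) are from the Ensembl annotation of BDGP6, of which no coordinates were used, and 11021 of 11587 uORF transcripts matched it. The limits for uORFs were 11.8 RPKM and a coverage of 0.57. The study also required a minimum of reads in a single experiment, which was not applied here. Alternatives concerned the mRNA minimum, the ratio limit, the CDS per gene, coverage, length and the small polysome library. No sequence is printed. Scripts ran in Python 3.11.15, with scipy 1.17.1 for intervals, pandas 2.3.3 and numpy 2.4.6 for tables, and matplotlib 3.10.9 for figures.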

Additional observations from a re-analysis of the deposited data

How the results depend on the processing

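The number of genes in the set depends on its limits. It was 12 with an mRNA minimum of 20 RPKM and 50 with 5 RPKM, 103 with a ratio limit of 3 and 6 with a limit of 5, and 11 when the lower counting bound had to reach 4, an alternative chosen after seeing the data. With the mRNA minimum of 20 RPKM, 6 of the 12 reached a TE of 4 in large polysomes and 3 in the extensive library, and all 12 passed the coverage limit in each of the 4 libraries. With the ratio limit of 5, 3 of the 6 reached a TE of 4 in large polysomes and 3 in the extensive library. All 6 passed the coverage limit in each library, and the median TE in the extensive library was 5.80. Under these stricter limits fewer genes are kept, which lowers such counts. Taking the CDS of highest mRNA RPKM per gene gave 26 genes, with all 25 among them and sgg added. A limit of 4 times the eligible median gave 29, and CDSs of any length or a coverage minimum gave 25. Of 63 values under alternatives, 45 stayed close, 18 moved further and 0 changed sign. The coverage minimum removed no gene, so its values were close by construction, and only the log2 medians could change sign. Counts within 1.5-fold and medians within the 95% interval of the main median were taken as close. Since that interval is wide, values taken as close include a median CDS length of 1158 nt and a median log2 small over large ratio of −0.47 at the ratio limit of 5, against 2346 nt and −0.80, which no longer stand above and under the eligible medians of 1368 nt and −0.50. No paired analysis was possible because each group has 1 sample. An interval that reaches under 4 was found for 14 of the 25 genes. The design has no replicate of the all-polysome or large polysome library, so their reproducibility is unknown.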
